A study of Mus musculus with 7 samples.

Results

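Il6-high inflammatory reticular cells were examined in the mesenteric lymph node (mLN) of mice. They were selected on their counts, as cells with no count of Pecam1, which marks endothelial cells, no count of Cd34, which marks the adventitial stromal cells of the node, at least 1 count of the collagen gene Col1a2, and at least 10 counts of Il6. The rule found 197 cells among 13197 cells that passed the limits of 1000 to 4600 detected genes and at most 4.5% mitochondrial counts, out of 17692 cells in all. They were 6.17% of the 3193 kept cells with the same Pecam1, Cd34 and Col1a2 pattern, which are called stromal cells here, and the remaining 2996 of these are called other stromal cells. By age, 11 Il6-high cells came from D0, 6 from D10, 26 from D24, 90 from D56 and 64 from D300.

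The study followed the stromal cells of the gut-draining node after birth. Nodes of BALB/c mice kept specific pathogen free, both the small intestinal and the colon and caecum-draining ones, were digested with enzymes at days 0, 10, 24, 56 and 300 (D0 to D300). Single cells lacking CD45 and CD24 on their surface were sorted for droplet RNA sequencing, in which each captured transcript is counted once as a unique molecular identifier (UMI). No group was treated, and all ages share strain and housing. The methods of the study place the D56 data with an earlier publication of its authors. Whether D56 differs from the other ages in processing was not tested. The labels give 1 library each for D0, D10 and D24 and 2 each for D56 and D300, while the study text describes a single replicate at D300, and it is unknown which of the D300 libraries the table holds. The deposited columns do not separate the libraries of an age, so each age counts as 1 sample and the spread between animals of an age is unknown. The columns hold no barcodes, so barcodes shared between libraries could not be counted.

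The D10 library stood apart in Xist, the transcript of the inactive X chromosome of female cells, and the methods of the study name female mice unless stated otherwise. Xist was found in 1 of 6 Il6-high cells at D10, against 11 of 11 at D0, 26 of 26 at D24, 89 of 90 at D56 and 61 of 64 at D300. In other stromal cells it was found in 18.4% at D10 and 95.7% at D0. The part of sex in the values of D10 was not tested. D10 was not used in the main tests between classes given below and entered only the alternative with ages of at least 5 cells.

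Fibroblastic reticular cells (FRCs) build the fibre network of the lymph node and guide lymphocytes with the chemokines Ccl19, Ccl21a and Cxcl12. Interleukin 6, the product of Il6, signals through a receptor made of Il6ra and Il6st to the transcription factor Stat3. Cxcl1 and Cxcl2 attract neutrophils, and Ptgs2 (cyclooxygenase 2) makes the precursor of prostaglandins. These inflammatory genes are known targets of NF-kB, and Il6 and Ptgs2 are also known targets of C/EBP factors.

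Since Il6, Cxcl1, Cxcl2 and Ptgs2 mark the cells, the 250 bases in front of their start sites are shown with the letters of known motifs in capitals (RefSeq, GRCm38.p6, all genes on the plus strand). Capitals mark the NF-kB consensus, the AP-1 motif TGANTCA, the core ACGTCA of the cyclic AMP response element and the C/EBP motif TTGCNCAA, each searched on both strands. The windows are chr5:30012864-30013113 for Il6, chr5:90890995-90891244 for Cxcl1, chr5:90903649-90903898 for Cxcl2 and chr1:150099781-150100030 for Ptgs2.
Il6: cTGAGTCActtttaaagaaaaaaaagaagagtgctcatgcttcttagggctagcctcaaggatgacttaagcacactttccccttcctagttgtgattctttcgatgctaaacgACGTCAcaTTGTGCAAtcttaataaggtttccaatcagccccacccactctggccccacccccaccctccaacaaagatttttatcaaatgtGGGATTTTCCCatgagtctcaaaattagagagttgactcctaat
Cxcl1: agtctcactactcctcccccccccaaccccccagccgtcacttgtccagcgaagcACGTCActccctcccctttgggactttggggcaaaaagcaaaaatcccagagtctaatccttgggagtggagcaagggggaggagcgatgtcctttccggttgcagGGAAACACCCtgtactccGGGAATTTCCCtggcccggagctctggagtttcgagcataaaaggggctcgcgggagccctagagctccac
Cxcl2: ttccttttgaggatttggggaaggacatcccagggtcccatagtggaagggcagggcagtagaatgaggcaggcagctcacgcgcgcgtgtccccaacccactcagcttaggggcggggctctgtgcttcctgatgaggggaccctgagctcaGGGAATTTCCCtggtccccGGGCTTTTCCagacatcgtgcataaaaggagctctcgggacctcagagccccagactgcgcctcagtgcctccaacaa
Ptgs2: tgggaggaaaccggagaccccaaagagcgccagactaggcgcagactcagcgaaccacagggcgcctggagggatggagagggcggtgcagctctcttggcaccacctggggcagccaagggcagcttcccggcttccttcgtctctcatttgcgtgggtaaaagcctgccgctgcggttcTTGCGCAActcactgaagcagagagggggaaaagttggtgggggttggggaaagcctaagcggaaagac

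Il6 held overlapping NF-kB matches -44 to -34 bases from the start site, a C/EBP match at -128 to -121, the ACGTCA core at -136 to -131 and an AP-1 match at -249 to -243. Cxcl1 held NF-kB matches at -89 to -80 and, overlapping each other, at -71 to -61, and an ACGTCA core at -195 to -190. Cxcl2 held overlapping NF-kB matches at -97 to -87 and a further match at -78 to -69. Ptgs2 held a C/EBP match, read on both strands, at -69 to -62. That its window had no match to the other 3 motifs says only that these letters are not in it. Of 32851 mouse promoter windows of this length, 16.8% held an NF-kB match, 6.75% TGANTCA, 6.47% ACGTCA and 2.61% TTGCNCAA, and a match describes letters, not binding. Il6 lies at chr5:30013114-30019981, Cxcl1 at chr5:90891241-90893115, Cxcl2 at chr5:90903871-90905938 and Ptgs2 at chr1:150100031-150108227, all protein coding (GENCODE vM21, whose start sites of Cxcl1 and Cxcl2 lie some bases inside the RefSeq windows).

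The rule gathered most of the Il6 transcripts of stromal cells in few cells. Il6-high cells were 1.49% of the kept cells and carried 5609 of 23355 Il6 counts (24.02%). They carried 75.5% of the 7429 Il6 counts of stromal cells. Of the 197 cells, 99 had 10 to 19 Il6 counts, 69 had 20 to 49 and 29 had 50 or more, with the highest cell at 131. Other kept cells also reached 10 Il6 counts, namely 72 with Pecam1, 275 with Cd34 and not Pecam1, and 52 without all of Pecam1, Cd34 and Col1a2. Of these 52 cells, 43 came from D300, 9 from D56 and 0 from D24, beside the 64 Il6-high cells of D300. The effect of the Col1a2 limit on the shares and levels by age was not tested.

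Just inside the threshold, 29 stromal cells with 10 to 11 Il6 counts had 13963 CPM of Cxcl1 (counts per gene, scaled to the same total count in every class), 10995 CPM of Ccl2 and 143 CPM of Ptgs2. Just outside it, 35 stromal cells with 8 to 9 counts had 12900.4 CPM of Cxcl1, 8072 CPM of Ccl2 and 196 CPM of Ptgs2. Cxcl2 stood at 869.9 CPM inside and 1537 CPM outside. These values pool all ages, whose mix differs between the groups.

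The cells were more frequent at D24 and later. Il6-high cells were 1.78% of stromal cells at D0 (exact binomial 95% interval 0.893 to 3.17) and 0.819% at D10 (0.301 to 1.77). They were 7.90% at D24 (interval 5.23 to 11.4). Their share was 9.91% at D56 (interval 8.05 to 12.04) and 10.6% at D300 (interval 8.23 to 13.3). The intervals of D0 and D10 lie below those of D24, D56 and D300, and the latter 3 overlap. Intervals here and below cover counting error only, and with 1 sample per age no test between ages is possible.

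Cells with Pecam1, in which Il6 counts can also come from free RNA, reached 10 Il6 counts in 1.24, 0.576, 1.31, 2.88 and 2.71% of cells from D0 to D300. Their median depth was 7896, 7129, 6366, 5057 and 4051 UMIs, against 6939, 7272, 6369, 5798 and 4653 UMIs in stromal cells. The intervals of stromal cells lay above those of Pecam1-positive cells at D24, D56 and D300 and overlapped with them at D0 and D10.

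Median depth was lowest at D300. With every cell thinned to 2000 UMIs and a limit of 3 Il6 counts, the shares in stromal cells were 1.94, 0.959, 11.04, 11.03 and 17.2%, with the interval of D300 (14.3 to 20.4) above that of D56 (9.06 to 13.2). The thinning left out 8 shallower stromal cells and no Il6-high cell. The thinned share in Pecam1-positive cells was 3.48% at D56 and 5.15% at D300. Cd34-positive stromal cells had at least 10 Il6 counts in 1.66, 1.001, 7.49, 8.69 and 7.86% of cells from D0 to D300. After thinning their share was 9.99% at D56 (interval 8.53 to 11.6) and 11.6% at D300 (interval 8.33 to 15.7).

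**Figure D1:**
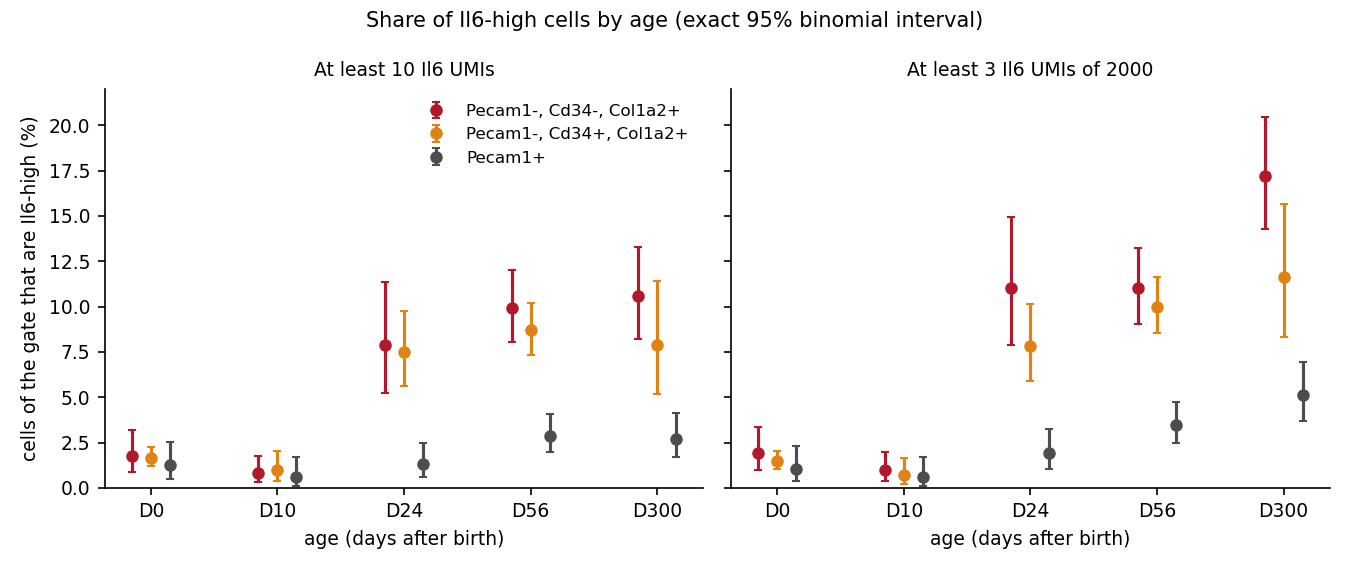
Share of cells with high Il6 (percent, y axis) at each age (x axis) among cells without Pecam1 and Cd34, cells with Cd34 and cells with Pecam1, as counted (left) and after thinning to 2000 UMIs (right). Points are 1 sample per age with exact 95% binomial intervals, and the red points of D24, D56 and D300 (7.90 to 10.6% as counted) lie above those of D0 and D10.

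The name of the cells was checked against marker genes. All 9 reticular markers were detected in the Il6-high cells of every age, among them the platelet-derived growth factor receptor gene Pdgfrb at 53.9, 42.9, 74.8, 41.3 and 62.4 CPM and Pdpn (podoplanin) at 62.8, 85.8, 170.1, 181 and 106 CPM from D0 to D300. The 9 genes summed to 14927, 28607 and 21326 CPM at D24, D56 and D300, below the 88493, 100713 and 65062 CPM of Ccl19-high cells, which are described below, and the 56459, 69281 and 40951 CPM of other stromal cells. The sum was 19042, 16396 and 20217 CPM in Cd34-positive cells with 10 or more Il6 counts and 8848, 20039 and 10770 CPM in Pecam1-positive cells. Most of the gap lay in Ccl21a, which made up 1987, 18569 and 12864 CPM of the sum in Il6-high cells and 73511, 84115 and 52529 CPM in Ccl19-high cells, and Ccl19, by which the Ccl19-high cells were chosen, is also 1 of the 9.

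Markers of other cells were checked in the same way. Of 14 blood cell markers, Ptprc (CD45) included, there were 4 counts in all 197 cells, and Ptprc itself had 0. Endothelial markers summed to 80.8, 42.9, 109, 75.8 and 103 CPM against 55.6, 73.7, 62.6, 57.2 and 86.9 CPM in Ccl19-high cells. Mesothelial markers summed to 62.8, 21.5, 68.04, 129 and 125 CPM against 26.6, 8.28, 29.8, 21.2 and 20.1 CPM. Most of the sum in Il6-high cells lay in Wt1, which had 68 counts at D56, where Upk3b, Krt19 and Msln had 3, 3 and 1.

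The name is less certain at D0, D10 and D24. The reticular markers summed to 12749 and 27532 CPM at D0 and D10. Of the 11 cells of D0, 5 had counts of the cycling gene Cdk1 (19 counts) and 10 of the perivascular marker Acta2 (120 counts). Mfap4, a marker of fibroblasts of adjacent tissue, stood at 916 and 2124 CPM in the Il6-high cells of these ages, against 207 and 735 CPM in Ccl19-high cells, but 1 cell held 43.1% of its 102 counts at D0 and 86.9% of its 99 counts at D10. Acinar enzymes of the pancreas summed to 790.1 CPM at D0 and 1191 CPM at D24, near the 786 and 946 CPM of Ccl19-high cells, and to 0 at D56 and D300. Their part in the results was not tested. Over all ages, a share of the cells also carried the T-zone chemokine, since 27 of the 197 had 10 or more counts of Ccl19. Of these, 20 came from D56, 5 from D300 and 2 from D0.

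Levels are given as CPM of the summed counts of a class at an age. Il6 itself stood at 1912, 2189, 5279.5, 5165 and 4738 CPM from D0 to D300, and Cxcl1 at 4642, 6695, 17029, 18895 and 18045 CPM. These values describe the choice of cells and carry no test. Cxcl1 had a log2 ratio to D56 of -0.15 (interval -0.21 to -0.09) at D24 and -0.07 (interval -0.11 to -0.02) at D300. The direction at D24 was not stable, since the ratio was 0.094 with a limit of 20 Il6 counts and -0.53 with cells thinned to 2000 UMIs, and that of D300 was -0.36 with 20 counts.

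Cxcl2 stood at 287, 1159, 1674, 1659.8 and 905 CPM, with a log2 ratio of D300 to D56 of -0.87 (interval -1.07 to -0.68). Ptgs2 had no count at D0, which allows up to 33.1 CPM (exact Poisson 95% limit), 3 counts in 1 cell at D10, and 415, 716 and 325 CPM at D24, D56 and D300. At D10, 1 cell held 81.5% of the Cxcl2 counts. The log2 ratio of Ptgs2 to D56 was -0.79 (interval -1.20 to -0.40) at D24 and -1.14 (interval -1.47 to -0.83) at D300. With cells thinned to 2000 UMIs the value of D24 was -1.75, and with a limit of 20 Il6 counts that of D300 was -1.73, both outside these intervals. Among the 26 cells of D24, 1 cell held 45.9% of the Ptgs2 counts and 1 cell 33.3% of the Cxcl2 counts, whereas at D56 no cell held more than 9.86% of the Ptgs2 counts. The intervals treat counts as independent and are too narrow where few cells carry a gene.

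After thinning to 2000 UMIs, Cxcl1 was found in 100, 97.8 and 100% of Il6-high cells at D24, D56 and D300, Cxcl2 in 38.5, 50 and 37.5% and Ptgs2 in 23.1, 41.1 and 34.4%. All 3 were found together in 3 of 26, 22 of 90 and 11 of 64 cells. At this depth and these levels, a count of 0 does not show that a cell lacks the transcript.

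Cells with 50 or more Il6 counts had 24801 CPM of Cxcl1 and 891 CPM of Ptgs2, and cells with 10 to 19 had 14466 and 388 CPM, over all ages together. At D300 the order was the opposite, with 14286 against 20268 CPM of Cxcl1 and 244 against 408 CPM of Ptgs2, and the highest bin held 5 cells at D300 and 18 at D56.

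The level in the cells they are compared with differed more with age. Ccl19-high cells have no Pecam1 or Cd34, at least 10 counts of Ccl19 and fewer than 10 of Il6, and are taken to be mostly T-zone FRCs (169, 258, 76, 277 and 66 cells from D0 to D300). Cxcl1 stood at 2137, 228, 463, 2513 and 8387 CPM in these cells, lowest at D10 and D24 and highest at D300. The Cxcl1 level of Il6-high cells was 36.8-fold that of Ccl19-high cells at D24 (95% interval 32.7 to 41.5), 7.52-fold at D56 (95% interval 7.28 to 7.76) and 2.15-fold at D300 (95% interval 2.06 to 2.24).

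The ratios of Cxcl2 and Ptgs2 had the same order of ages. The ratio of Cxcl2 was 70.2-fold in D24 cells (interval 42.4 to 125), 6.87-fold in D56 cells (interval 6.18 to 7.63) and 1.34-fold in D300 cells (interval 1.13 to 1.57). The ratio of Ptgs2 was 17.4-fold in D24 cells (interval 9.92 to 32.4), 11.1-fold in D56 cells (interval 9.18 to 13.5) and 3.31-fold in D300 cells (interval 2.31 to 4.82). Other stromal cells had 1967, 3659 and 8809 CPM of Cxcl1 at these ages. Whether the ratios differ between ages beyond the spread of animals could not be tested.

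**Figure D2:**
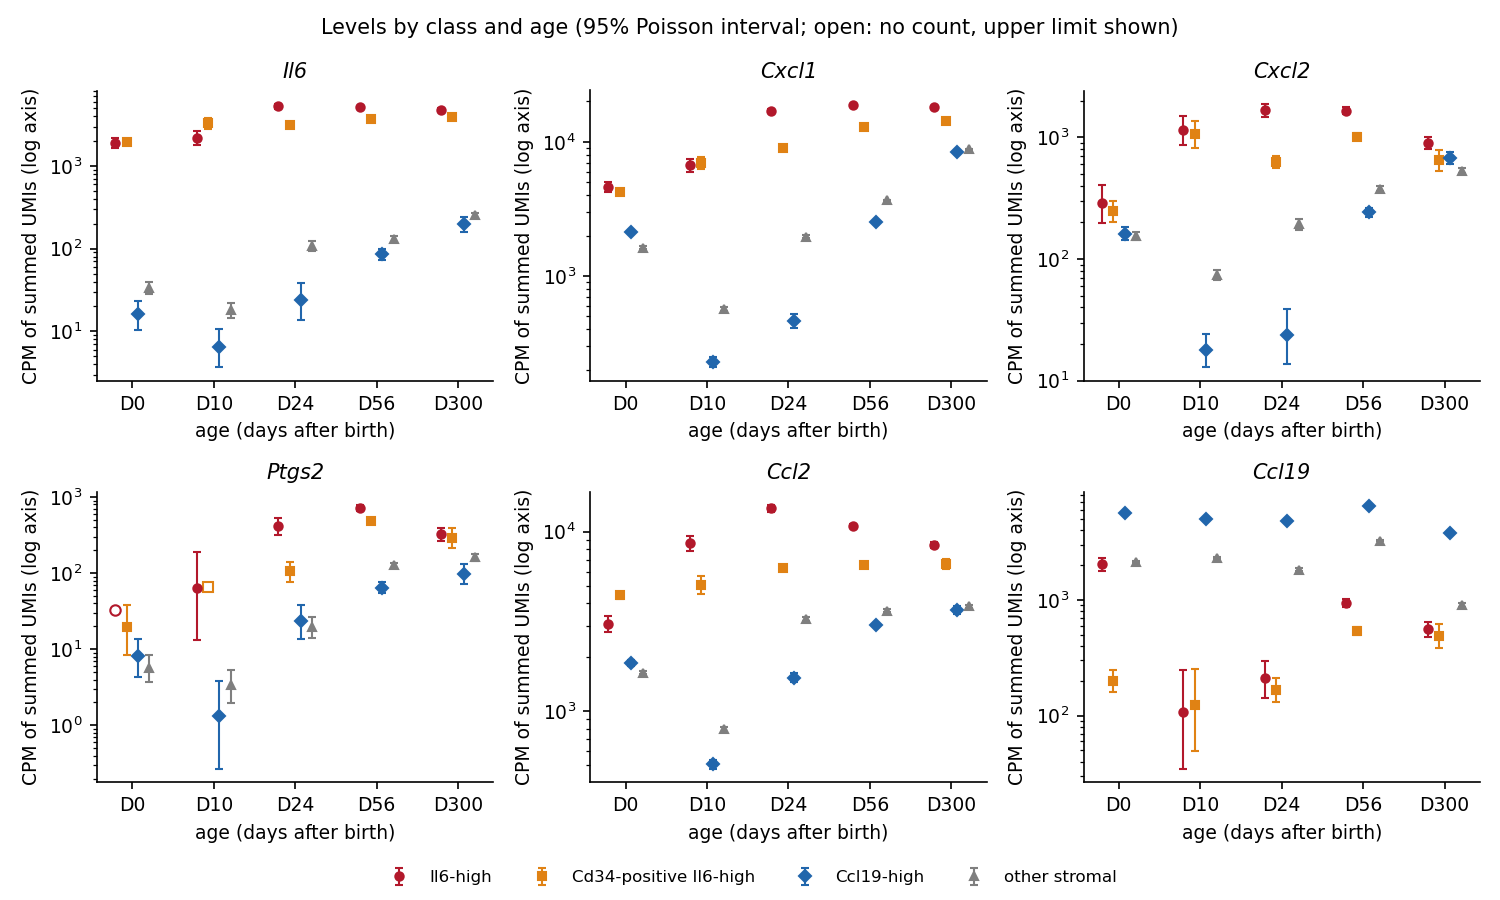
Level of 6 genes (CPM of summed UMIs, log axis) at each age (x axis) in 4 classes of cells without Pecam1, with 95% Poisson intervals. Open symbols mark classes without a count, drawn at the upper limit. Cxcl1 in Il6-high cells lies between 17029 and 18895 CPM from D24 on, while in Ccl19-high cells it lies at 463, 2513 and 8387 CPM.

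To see what else sets Il6-high cells apart from Ccl19-high cells, counts were summed per age and class and tested with edgeR's quasi-likelihood test with age as a block, over the 3 ages with at least 20 cells of each class (D24, D56 and D300). Il6-high cells were shallower, with a median of 5825, 6147.5 and 4615.5 UMIs against 9050, 7918 and 6206. Their median share of ribosomal counts was 9.35, 11.6 and 13.7% against 14.5, 13.5 and 15.1%. Of 5225 genes other than those used for the choice, 406 were higher (7.77%) and 195 lower (3.73%) in Il6-high cells at a Benjamini-Hochberg adjusted p under 0.05, with a median log2 fold change of -0.03. The calls depended on D56, which has the most Il6-high cells, since without it edgeR called 0 genes (638 at an unadjusted p under 0.05). DESeq2 called 313 genes, of which 247 were shared with edgeR.

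Of the inflammatory cytokines and chemokines, 8 were abundant enough for the test besides the marker genes, and 4 were higher and 0 lower in Il6-high cells, with a median log2 fold change of 2.03. Cxcl5, another neutrophil attractant, stood at 136, 291 and 137 CPM against 8.94, 32.5 and 53.5 CPM at D24, D56 and D300 (log2 fold change 2.89 ± 0.52 SE, edgeR adjusted p = 0.0378). It came from 4, 15 and 7 Il6-high cells, and it did not pass against all other stromal cells. Ccl11, which attracts eosinophils, stood at 3109, 2259 and 1183 CPM against 512, 634 and 517 CPM (2.04 ± 0.29, edgeR adjusted p = 0.00191). Cxcl10, which attracts activated T cells, was higher by 1.86 ± 0.27, and Tslp (thymic stromal lymphopoietin) by 1.43 ± 0.32.

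The monocyte attractants Ccl2 and Ccl7 were the most abundant of the list besides the marker genes, and neither passed the edgeR test, though DESeq2 called both. Ccl2 stood at 13491, 10725 and 8444 CPM against 1541, 3031 and 3665 CPM (log2 fold change 2.20 ± 0.47, edgeR adjusted p = 0.0638). Ccl7 stood at 7082, 5890.2 and 4064 CPM against 678, 1652 and 3106 CPM (2.02 ± 0.90, edgeR adjusted p = 0.351). Of D24, D56 and D300, the last had the lowest level of both genes in Il6-high cells and the highest in Ccl19-high cells.

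Cytokines made mainly by blood cells were at or near 0. Il1a and Il1b had 0 counts in the 197 cells and Tnf had 3 counts at D56 and 1 at D300. Lif, which signals through Il6st as interleukin 6 does, had 34 counts at D56, 5 at D300 and 0 at D24. The 91 counts of Cxcl3 at D56 came from 4 cells.

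Many NF-kB genes were higher. Of 18 subunits, inhibitors and targets tested, 8 were higher and 1 lower, with a median log2 fold change of 1.21. Nfkb1, which encodes the p50 subunit, stood at 265, 382 and 381 CPM against 41.7, 69.3 and 116 CPM (log2 fold change 2.42 ± 0.22, edgeR adjusted p = 3.2e-05). Rel was higher by 2.06 ± 0.28 and Rela by 1.28 ± 0.21. Nfkbia, the inhibitor that NF-kB itself induces, stood at 1517, 3256 and 2841 CPM against 481, 1189 and 2221 CPM (1.32 ± 0.28, edgeR adjusted p = 0.0167), the difference being smallest at D300.

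Tnfaip2 and Sod2, the mitochondrial superoxide dismutase, were higher by 2.13 ± 0.20 and 1.67 ± 0.18. The feedback genes Tnfaip3 and Tnip1 were higher by 0.99 ± 0.19 and 1.13 ± 0.21, of which DESeq2 did not call Tnfaip3. Birc2, an inhibitor of apoptosis, was lower, at 40.8, 143 and 119 CPM against 186, 299 and 234 CPM. Nfkb2 and Relb, of the noncanonical arm, did not pass, with log2 fold changes of -0.01 ± 0.29 and 0.67 ± 0.21.

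In the IL-6 arm, 6 of 14 genes tested were higher and 0 lower (median log2 fold change 0.62). The receptor genes of interleukin 6 itself did not pass, with Il6ra at 47.6, 34.4 and 43.7 CPM against 53.6, 51.99 and 28.97 CPM and Il6st at 81.6, 110.2 and 109 CPM against 156, 143 and 152 CPM. Osmr, the oncostatin M receptor, stood at 81.6, 105 and 225 CPM against 35.7, 48.95 and 102 CPM (log2 fold change 1.27 ± 0.20, edgeR adjusted p = 0.000862). Stat3 was higher by 1.03 ± 0.19, a call that DESeq2 did not make.

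Among known targets of Stat3, the feedback inhibitor Socs3 stood at 1469.6, 1155 and 1829 CPM against 316, 360.4 and 893 CPM (log2 fold change 1.80 ± 0.24, edgeR adjusted p = 0.000626), and Socs1 and the kinase Pim1 were higher by 1.93 ± 0.28 and 2.03 ± 0.23. Cebpb, a C/EBP factor, stood at 3320.1, 3184 and 4245 CPM against 499, 1020.2 and 1653 CPM (2.06 ± 0.29, edgeR adjusted p = 0.00194). The Il6-high cells of D0 and D10 had 1446 and 1266 CPM of Cebpb.

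Of 8 genes of the prostanoid pathway tested besides Ptgs2, 2 were lower, where 3.73% of all genes were, and 0 higher, with a median log2 fold change of -0.03. Hpgd, which inactivates prostaglandins, stood at 156, 110.2 and 137 CPM against 421, 431 and 349.8 CPM (log2 fold change -1.45 ± 0.19, edgeR adjusted p = 0.000231). Slco2a1, the prostaglandin transporter, stood at 13.6, 27.5 and 9.36 CPM against 20.9, 63.7 and 53.5 CPM (-1.27 ± 0.35). Ptges, the inducible synthase of prostaglandin E2, did not pass, at 40.8, 37.9 and 62.4 CPM against 29.8, 38.1 and 82.4 CPM.

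Some proteins that set the lifetime of cytokine messages were higher. Of 6 such genes tested, 2 were higher and 0 lower (median log2 fold change 1.36). Zc3h12a (Regnase-1), which degrades the Il6 message, stood at 68.04, 84.4 and 137 CPM against 7.45, 12.1 and 40.1 CPM (2.61 ± 0.30, edgeR adjusted p = 7.93e-05), and Zfp36l1 was higher by 0.61 ± 0.18. Where 7.77% of all genes were higher and 3.73% lower, among 14 receptors of inflammatory signals and their adaptors, 1 was higher, the adaptor Myd88 (0.89 ± 0.20), and 2 were lower, both chains of the interferon gamma receptor, Ifngr1 (-0.69 ± 0.18) and Ifngr2 (-1.07 ± 0.25), with a median of 0.21.

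The genes with the largest differences included matrix and stress genes. Adamts4, which cleaves matrix proteoglycans, stood at 184, 275 and 393 CPM against 5.96, 7.36 and 57.9 CPM (log2 fold change 4.27 ± 0.67, edgeR adjusted p = 0.0473). Mt2, a metallothionein that binds zinc and copper, stood at 2252, 2211 and 1926 CPM against 69.997, 137 and 229 CPM (4.16 ± 0.48, edgeR adjusted p = 0.0101). Sparcl1, a secreted matrix protein, was higher by 3.95 ± 0.48, and Srxn1, which repairs oxidized peroxiredoxins, by 3.53 ± 0.56. Rgs16, a regulator of G protein signalling, stood at 497, 732 and 936 CPM against 50.6, 57.2 and 207 CPM (3.20 ± 0.34).

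The list went on with the interferon-inducible genes Ifi203 and Ifi204 (3.09 ± 0.43 and 2.78 ± 0.28), Gdf10 of the TGF-beta family (3.03 ± 0.55), Ugdh, which makes a sugar precursor of hyaluronan (2.83 ± 0.24, edgeR adjusted p = 3.2e-05), and Thbs1 (thrombospondin 1, 2.79 ± 0.41). It ended with Nnmt, which methylates nicotinamide (2.68 ± 0.48), Akap2 (2.65 ± 0.26), the histone demethylase Kdm6b (2.52 ± 0.44) and the secreted factor Metrnl (2.52 ± 0.31). Gdf10 did not pass against all other stromal cells. Of these 15 genes 7 had a promoter window of the same length, of which Ifi203 held an NF-kB match and Ifi203, Mt2 and Srxn1 an AP-1 match.

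Many genes of T-zone FRCs were lower. Of 16 tested, 9 were lower and 0 higher, with a median log2 fold change of -1.12. The comparison cells were chosen for Ccl19, so this count is not independent of that choice. Against all other stromal cells, 6 of 18 were lower and 0 higher (median -0.49), where 1.26% of all genes tested were lower and 3.76% higher. The other stromal cells include the Ccl19-high cells that have Col1a2, so this second count is not independent of the choice either. Il7, which keeps naive T cells alive, stood at 0, 34.4 and 28.1 CPM against 183, 159 and 123 CPM (-2.37 ± 0.39, edgeR adjusted p = 0.00454), and Clu (clusterin) at 524, 1724 and 1473 CPM against 10639.6, 10062 and 7237 CPM (-2.86 ± 0.45).

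Further lower T-zone genes were Cxcl9 (-3.14 ± 0.33), Grem1, an antagonist of bone morphogenetic proteins (-2.13 ± 0.24), Bst1 (-1.75 ± 0.26) and the alarmin gene Il33 (-1.13 ± 0.22), of which Il33 did not pass against all other stromal cells. The chemokine Ccl21a stood at 1987, 18569 and 12864 CPM against 73511, 84115 and 52529 CPM and did not pass the edgeR test (log2 fold change -2.89, edgeR adjusted p = 0.274), while DESeq2 called it. Of 8 organizer and B-zone genes tested, 3 were lower and 0 higher (median -0.26), namely Cxcl13, Madcam1 and Tnfsf13b.

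The lower genes with the largest differences outside this list were Stmn2, which binds tubulin, at 0, 10.3 and 0 CPM against 211, 107 and 82.4 CPM, and the kinase gene Prkcb at 0, 13.8 and 6.24 CPM against 169.8, 112 and 77.98 CPM. Ccnd1 (cyclin D1) stood at 6.80, 15.5 and 12.5 CPM against 237, 114 and 75.8 CPM. Spint2, an inhibitor of serine proteases, had a log2 fold change of -2.69 ± 0.35 and the desmosome gene Dsc3 of -2.39 ± 0.25. The transcription factor Msc and the protease inhibitor gene Serpina1d followed at -2.27 ± 0.23 and -2.24 ± 0.24, and Serpina1d has close copies among which reads can be split. Mfap4 was lower at these ages (-2.40 ± 0.37). Slc7a11, the cystine transporter, had 1 count in the Il6-high cells of the 3 ages and stood at 49.1, 65.4 and 42.3 CPM in Ccl19-high cells.

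Inmt, a methyltransferase, had large differences in level without passing the edgeR test. It stood at 1041, 1618 and 2591 CPM against 19.4, 465 and 920.2 CPM (log2 fold change 2.76 ± 1.26, edgeR adjusted p = 0.373), and was found in 76.9, 91.1 and 95.3% of the Il6-high cells of D24, D56 and D300. At D0 it had 0 counts. DESeq2 called Inmt.

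**Figure D3:**
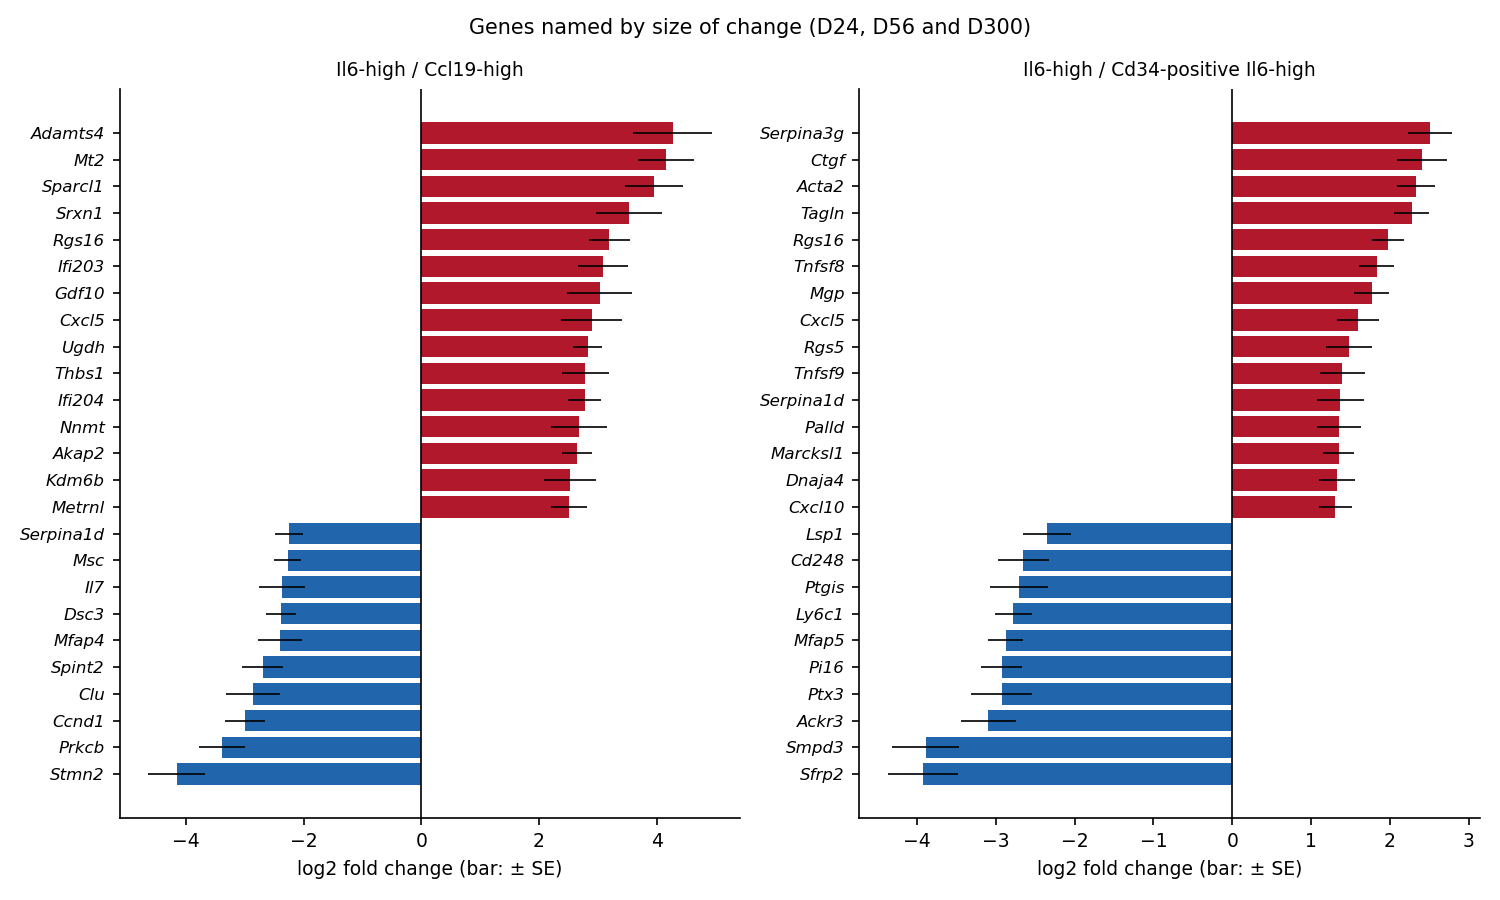
Log2 fold change (x axis, line: standard error) of the genes named by size of difference, Il6-high against Ccl19-high cells (left) and against Cd34-positive Il6-high cells (right), edgeR over D24, D56 and D300. Red bars are higher and blue bars lower in Il6-high cells, and the left panel runs from Adamts4 at 4.27 to Stmn2 at -4.16, the latter with 0 counts in Il6-high cells at D24 and D300.

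Matrix genes were among the higher ones. Of 18 genes of matrix remodelling and hyaluronan tested, 9 were higher and 0 lower than in Ccl19-high cells (median log2 fold change 1.65), among them Plaur, the urokinase receptor (2.86 ± 0.39), Adamts1 (2.44 ± 0.22), Plau (urokinase, 1.84 ± 0.34) and Timp1, an inhibitor of metalloproteinases (1.47 ± 0.24). Has1, which makes hyaluronan, stood at 1783, 671 and 190.4 CPM against 17.9, 19.1 and 42.3 CPM and did not pass with edgeR (4.98 ± 1.28), while DESeq2 called it. Tnfaip6, which binds hyaluronan, stood at 2089, 2758 and 2063 CPM against 95.3, 205 and 891 CPM and did not pass with edgeR. Of 18 collagens and other matrix genes, 5 were higher and 0 lower (median 0.49), such as Fbln1 (fibulin 1, 2.43 ± 0.24), Mgp (1.41 ± 0.21) and Dcn (decorin) at 17049.6, 19008 and 24438 CPM against 6207, 9660.5 and 13451 CPM.

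Genes that respond to stress, which tissue digestion can also induce, were counted by list. Of 25 immediate early genes, 8 were higher and 0 lower (median log2 fold change 1.51), among them Nr4a3 (3.12 ± 0.47), Fosl2 (2.19 ± 0.28), Atf3 (1.86 ± 0.35) and Junb (1.16 ± 0.30). Their sum was 28466, 32232 and 50306 CPM in Il6-high cells and 9116, 20462 and 41302 CPM in Ccl19-high cells. In other stromal cells it was 16729, 27489.7 and 53059.9 CPM, above the Il6-high cells at D300, and in Cd34-positive cells with 10 or more Il6 counts 24443, 32429 and 48517 CPM. All 4 classes were highest at D300. Of 18 heat shock genes, 1 was higher, where 7.77% of all genes were, namely Dnajb4 (0.93 ± 0.18), and 0 lower (median 1.40), and DESeq2 called 8 of them higher, with 4.63% of all genes higher and 1.36% lower by DESeq2.

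The sum of heat shock genes was 86064, 61299 and 38691 CPM in Il6-high cells and 16168, 33840.4 and 29948 CPM in Ccl19-high cells, with 29151, 39744 and 31691 CPM in other stromal cells. Of 15 genes of metallothionein and oxidative stress, 6 were higher and 1 lower (median 1.23). Mt1 stood at 10831, 8927 and 9836 CPM against 204, 514 and 2016 CPM and did not pass with edgeR (4.20 ± 1.12), while DESeq2 called it. The part of digestion in these levels was not tested.

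Markers of other stromal cells were compared in the same fit, in which 7.77% of all genes were higher and 3.73% lower. Of 6 perivascular markers tested, 1 was lower, Rgs5 (-1.21 ± 0.26), and 0 higher, and the list summed to 1313, 1136 and 986 CPM against 1860.1, 1485 and 920.2 CPM. Of 6 markers of Cd34-positive cells, 2 were higher, Gdf10 and Dpep1 (1.54 ± 0.23), and 0 lower, with sums of 1898, 1381 and 1542 CPM against 1278, 984 and 1194 CPM. The mesothelial marker Wt1, a transcription factor, stood at 54.4, 117 and 125 CPM against 17.9, 15.6 and 20.1 CPM (2.75 ± 0.28). Of 8 reticular markers, 0 passed in either direction.

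High Il6 is also found in Cd34-positive stromal cells, so the Il6-high cells were set against 257 kept cells with Cd34, without Pecam1, with Col1a2 and at least 10 Il6 counts (50, 133 and 25 cells at D24, D56 and D300). This comparison was added after the data were seen. Median depth was 5825, 6147.5 and 4615.5 UMIs in Il6-high cells and 7765.5, 7560 and 5417 UMIs in the Cd34-positive ones. At this depth a count of 0 does not show that a cell lacks Cd34, and the part of depth in this comparison was not tested. Of 4216 genes other than those used for the choice, 178 were higher (4.22%) and 152 lower (3.61%) by edgeR at an adjusted p under 0.05, with a median log2 fold change of -0.01. With the marker genes included, edgeR called 333 genes and DESeq2 79. Leaving out D56 left 81 calls and leaving out the age block 10.

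Where 4.22% of all genes were higher, of 15 genes of the IL-6 arm 1 was higher, Cebpb (0.66 ± 0.18; not called by DESeq2), and 0 lower (median log2 fold change 0.08). Il6 stood at 5279.5, 5165 and 4738 CPM against 3147, 3747 and 3906 CPM at D24, D56 and D300, and Cxcl1 at 17029, 18895 and 18045 CPM against 9043, 12904 and 14422 CPM. Of 8 other inflammatory cytokines, 4 were higher and 0 lower (median 0.65), namely Cxcl5 (1.59 ± 0.26), Tnfsf9 (1.39 ± 0.28), Cxcl10 (1.31 ± 0.20) and Ccl2 (0.84 ± 0.19, edgeR adjusted p = 0.000307). Of 17 NF-kB genes, 6 were higher and 0 lower (median 0.58), led by Birc3 (1.13 ± 0.21) and the adhesion molecule Vcam1 (1.07 ± 0.18), and DESeq2 called 2, with 0.901% of all genes higher and 0.972% lower by DESeq2.

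Several T-zone genes were higher in the Il6-high cells than in Cd34-positive Il6-high cells. Of 15 tested, 8 were higher and 0 lower (median log2 fold change 0.73), of which DESeq2 called 2. Ccl21a stood at 1987, 18569 and 12864 CPM against 1254, 7805 and 12035 CPM (0.79 ± 0.19, edgeR adjusted p = 0.00132) and Cxcl12 at 4660.4, 6911 and 6977 CPM against 2316, 4183 and 6604 CPM (0.72 ± 0.19). Inmt stood at 1041, 1618 and 2591 CPM against 356, 898 and 2672 CPM (0.87 ± 0.19), the difference lying at D24 and D56. DESeq2 did not call Ccl21a, Cxcl12 or Grem1, the latter at 74.8, 82.6 and 31.2 CPM against 31.4, 27.03 and 26.5 CPM.

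Perivascular genes were higher as well, 5 of 6 tested with 0 lower (median log2 fold change 1.35). Acta2 (smooth muscle actin) stood at 456, 432 and 190.4 CPM against 64.96, 140.0 and 26.5 CPM (2.33 ± 0.24), and Rgs5 at 109, 87.8 and 109 CPM against 31.4, 53.1 and 6.63 CPM (1.48 ± 0.30). A minority of cells carried these 2 genes at each age. Acta2 was found in 5 of 26, 35 of 90 and 11 of 64 Il6-high cells at D24, D56 and D300, and 1 cell held 55.2% of its counts at D24. Rgs5 was found in 7, 20 and 9 of these cells, and 1 cell held 37.1% of its counts at D300. The perivascular list summed to 347, 497 and 584 CPM in Cd34-positive Il6-high cells, and the part of perivascular cells in the result was not tested.

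Markers of Cd34-positive cells were lower, in a comparison whose cells were chosen by Cd34. Of 8 tested, 7 were lower and 0 higher (median log2 fold change -2.13), among them Pi16 at 54.4, 89.5 and 9.36 CPM against 585, 564 and 179 CPM (-2.92 ± 0.26, edgeR adjusted p = 6.03e-26), Ly6c1 (-2.78 ± 0.24), Cd248 (-2.65 ± 0.33) and the chemokine scavenger Ackr3 (-3.09 ± 0.35). The lowest values were those of Sfrp2, a modulator of Wnt signals, at 0, 10.3 and 0 CPM against 235, 96.5 and 39.8 CPM, and Smpd3, a sphingomyelinase (-3.89 ± 0.43). Mfap5, a microfibril protein, and Lsp1 followed at -2.87 ± 0.22 and -2.35 ± 0.30.

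Some matrix genes were lower than in the Cd34-positive cells. Of 18 genes of matrix remodelling, 6 were lower and 0 higher in the Il6-high cells (median log2 fold change -0.02), and of 20 collagens and other matrix genes 6 were lower and 1 higher (median -0.36). Ptx3 (pentraxin 3), which stabilizes hyaluronan, stood at 47.6, 210.1 and 0 CPM against 1734, 928 and 13.3 CPM (-2.93 ± 0.39). Fn1 (fibronectin) and Fbn1 (fibrillin 1) had log2 fold changes of -1.74 ± 0.21 and -2.28 ± 0.26. Mgp, with the shares of single cells given above, was higher (1.77 ± 0.22). Of 7 prostanoid genes, Ptgis, which makes prostacyclin, was lower at 20.4, 17.2 and 6.24 CPM against 242, 92.7 and 59.7 CPM, and Hpgd higher (1.04 ± 0.27).

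Heat shock genes were higher than in Cd34-positive Il6-high cells, 14 of 18 with 0 lower (median log2 fold change 0.76), among them Hspa1a (0.94 ± 0.19), Hspb1 (1.05 ± 0.18) and Dnaja4 (1.33 ± 0.23), and DESeq2 called 10. Further genes with large differences were the protease inhibitor Serpina3g (2.51 ± 0.27), Ctgf (2.41 ± 0.32), Tagln, which binds actin (2.27 ± 0.23), Rgs16 (1.97 ± 0.20) and Tnfsf8, the CD30 ligand (1.83 ± 0.22). Of the Ctgf counts of D24, 72.5% came from 1 cell. Serpina1d, Palld and Marcksl1 were higher by 1.37 ± 0.30, 1.36 ± 0.28 and 1.35 ± 0.20, and DESeq2 did not call the former 2.

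**Figure D4:**
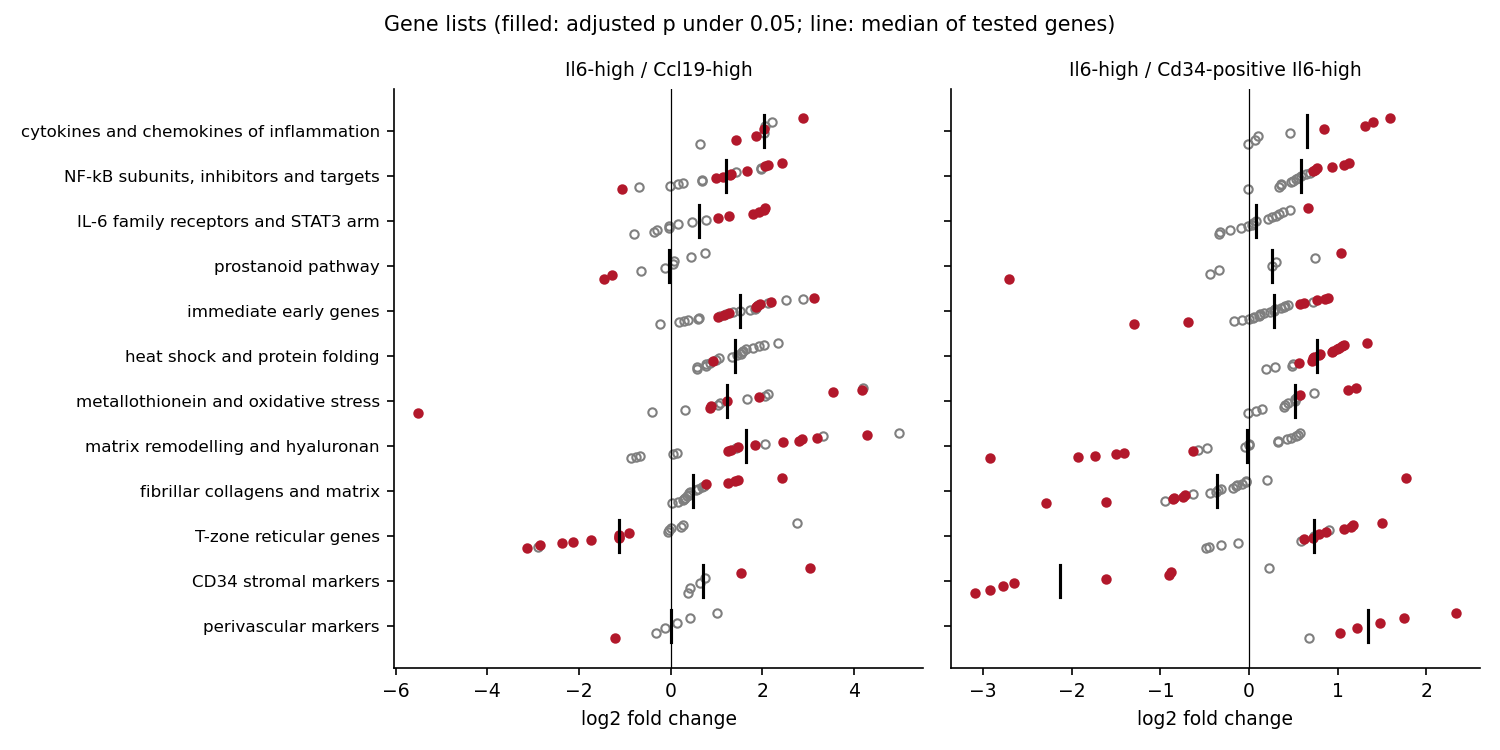
Log2 fold change (x axis) of each tested gene (points) in 12 gene lists, Il6-high against Ccl19-high cells (left) and against Cd34-positive Il6-high cells (right). Filled points passed an adjusted p under 0.05 (edgeR) and lines are medians, which for T-zone genes lie at -1.12 on the left and 0.73 on the right.

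The levels of single genes in Il6-high cells at different ages are a description without a test. Among 702 genes at 200 CPM or more at D24 or D56, the median absolute log2 ratio of D24 to D56 was 0.40, and among 657 genes at D300 or D56 it was 0.27. The collagen genes Col1a1 and Col3a1 stood at 2749, 721 and 275 CPM and 5021, 1150.2 and 396 CPM at D24, D56 and D300, and Col1a1 at 1571, 715 and 365 CPM in Ccl19-high cells. Ccl21a had a log2 ratio of D24 to D56 of -3.22 (interval -3.40 to -3.06) in Il6-high cells, whereas in Ccl19-high cells it stood at 73511 and 84115 CPM at these ages. Has1 stood at 1783, 671 and 190.4 CPM.

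The other genes named for D24 against D56 were the acinar enzymes Try4 and Ctrb1, at 293 and 279 CPM at D24 and with 0 counts at D56, Pthlh, whose 48 counts came from 1 cell, and Rpl10-ps3 and Gm8797, both listed as protein coding (log2 ratios -3.63 and -2.90). Reads of near-identical gene copies can be split among them, so the values of these genes are uncertain. For D300 against D56 the higher ones were Mcl1, which protects from apoptosis, at 412 against 107 CPM (in Ccl19-high cells 158 against 52.9 CPM), the processed pseudogene Rps18-ps3 (1.90) and Serpina1d (1.88).

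The lower ones at D300 were Cryab, a small heat shock protein, at 68.7 against 387 CPM, Gm8797 (-3.06) and Ptx3, with 0 counts at D300 against 122 at D56, of which 52.5% came from 1 cell.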

How the data were processed

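The deposited table held raw UMI counts per gene and cell, which the authors made with Cell Ranger 2.0.0 and STAR on mm10 (submitters' processing notes, which also name Seurat 2.3.3); ages were read from column names. The limits on cells were 1000 to 4600 detected genes and 4.5% mitochondrial counts. Scrublet's own limit marked 68 of 17692 cells, too few to be of use, so doublets were left in, and removing the highest 5% of scores was an alternative. Each age was used as 1 sample.

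Counts were summed per age and class and tested with edgeR 4.0.16 (quasi-likelihood with robust dispersion, TMM, age as a block, low-count filter, adjusted p under 0.05 by Benjamini-Hochberg). DESeq2 1.42.0 was an alternative, and the fit was tested on simulated data. Class comparisons treat the ages as the samples, so p-values measure the spread of the class difference over 3 ages. CPM is a gene's share of the summed counts; shares have Clopper-Pearson and levels Poisson 95% intervals. The genes used for the choice of cells, were left out of the fit, and Cxcl1, Cxcl2 and Ptgs2 stayed in it with their values given as a description only.

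Named genes were the 15 with the largest log2 fold change higher and the 10 lower among those that passed in the same direction at every age and had a mean of at least 100 CPM in the higher class; for ages, the 3 largest rises and falls among genes of at least 200 CPM; and members of gene lists, up to 6 a list by size plus defining members. Has1, Col1a1 and Col3a1 in the text on ages were chosen after their values were seen. The cells, gene lists and rule were chosen with earlier results of these data known.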

Additional observations from a re-analysis of the deposited data

Results flagged for a closer look

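In 10 genes of the lists the log2 ratio of Il6-high to Ccl19-high cells had opposite signs at different ages, each with a counting interval that leaves out 0; with 1 sample per age the difference between ages was not tested. Among immediate early genes, Jun stood at 0.55 at D24 and -0.46 at D56, Ier2 at 0.85 at D24, 0.72 at D56 and -0.23 at D300, Dusp1 at 0.48 at D56 and -0.37 at D300, and Klf6 at 1.43 at D24 and -0.76 at D300. Of the NF-kB genes, the inhibitor gene Nfkbie stood at -3.23 at D24, from 1 count in Il6-high cells, and 0.55 at D56. Vcam1 stood at 0.50 at D24 and -0.18 at D300. Among matrix genes, Col1a1 stood at 0.81 at D24 and -0.41 at D300 and Sparc at 0.49 at D24 and -0.37 at D56. Acta2 stood at -0.46 at D24, 0.98 at D56 and 2.61 at D300. Pthlh stood at 2.92 at D24, from 1 cell, and -2.61 at D56, from 4 counts in Il6-high cells.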

How the results depend on the processing

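Against Ccl19-high cells edgeR called 601 genes with the marker genes included. DESeq2 called 313, the fit without the age block 287, a limit of 20 Il6 counts 360 and cells thinned to 2000 UMIs 151, and leaving out 1 age at a time gave 0 (without D56) to 834; another scaling, no low-count filter, a limit of 5 Il6 counts, other comparison cells, no cell filter and fewer doublets stayed within 1.5 times. The share of calls that were higher was 67.6%, and 77.3% with DESeq2. With all ages of at least 5 cells, a choice made after seeing the data, Mfap4 turned to 0.29. Against Cd34-positive Il6-high cells edgeR called 333 genes, DESeq2 79, the fit without the age block 10 and that with ages of at least 5 cells 114, and leaving out 1 age gave 81 (without D56) to 361. Here 54.4% of calls were higher, and 48.1% with DESeq2, 45.4% without the low-count filter, 41.2% with ages of at least 5 cells, 37.0% without D24 and 10% without the age block, so the balance of directions depended on the setting. The cause was not tested.

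With a limit of 5 Il6 counts the shares at D24, D56 and D300 were 12.2, 14.3 and 18.98%, and with 20 counts those at D0 to D300 were 0.324, 0.136, 4.26, 5.51 and 5.12%. With 10 Il6 counts per 10000 UMIs they were 12.2, 13.1 and 18.6% at D24 to D300, after thinning 17.2% at D300, without the cell filter 7.36% at D56, and of all kept cells without Pecam1 0.349, 2.52, 3.50 and 4.77% at D0, D24, D56 and D300. D0 and D10 lay below the later ages in each.

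The log2 ratio of D24 to D56 of Cxcl1 was -0.24 with 5 counts, 0.094 with 20 and -0.53 after thinning, that of Cxcl2 -0.44, -0.49 and -0.39, and that of Ptgs2 -0.38 with 20 counts and -1.75 after thinning. For D300 to D56, Cxcl1 had -0.36 with 20 counts, -0.0034 without the cell filter and -0.16 after thinning, and with 20 counts Cxcl2 had -1.14 and Ptgs2 -1.73.

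No paired analysis was possible because the columns do not separate the libraries that share replicate numbers. The number of cells limits D0 (11) and D10 (6), which entered the class tests only with the limit of 5 cells, and genes carried by few cells. Depth limits what a count of 0 in a single cell can show.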
